A study of Mus musculus with 6 samples.

Results

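Aminoacyl-tRNA synthetases and translation factors are the enzymes and proteins that carry an mRNA through protein synthesis. A named set of 46 mouse genes of this kind was followed in plasmacytoid dendritic cells (pDCs), the dendritic cells that release type I interferon in quantity. A gene was represented by a microarray probe set that listed its symbol and no other, and by the brightest such probe set where there were several. In this way 40 of the 46 genes were measured, among 19937 genes in all. The other 6, Aars, Dars, Mars, Eif2s1, Eif4g1 and Eef1g, were not analysed here, since none had a probe set of this kind; the probe set that lists Aars also lists Exosc6.

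The cells were splenic pDCs, sorted as positive for B220 and SiglecH, from wild-type (WT) mice and from mice deficient in IRF8 (KO), a transcription factor needed by several dendritic cell lineages. There were 3 arrays per genotype, numbered 1 to 3 in their titles. The sources used here give no strain, age, sex or design of the IRF8 allele, and do not say whether each array had an animal of its own, so p-values measure the spread between these arrays, which may be technical. The series title names repression of MYC by IRF8 as its subject, and the question asked here is whether the translation genes followed the Myc level.

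A synthetase joins an amino acid to its tRNA, and several synthetases are held together in a complex by scaffold proteins, of which Aimp1 and Aimp2 encode members. Initiation factors then bring the first tRNA, the mRNA cap and the ribosomal subunits together, elongation factors move the ribosome along the mRNA, and a release factor ends the chain. MYC is a transcription factor that binds the E-box sequence CACGTG with its partner MAX, and genes of ribosome production and translation are well-known targets of it. Many synthetase genes are also induced by ATF4, the transcription factor of the integrated stress response, through the C/EBP-ATF response element.

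To show what the 2 motifs look like in the genes measured, the stretch around a match is printed for 6 of them, with the motif in capitals and the gene's own strand written 5′ to 3′. The sequences are RefSeq promoters of the mouse build GRCm38.p6, which cover 250 bases before a transcription start and 50 after it. The first 5 hold CACGTG and Gars holds the C/EBP-ATF element read on the opposite strand.
Farsb (chr1:78488898-78488976, minus strand): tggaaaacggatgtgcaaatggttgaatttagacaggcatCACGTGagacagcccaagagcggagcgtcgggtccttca
Iars (chr13:49682021-49682106, plus strand): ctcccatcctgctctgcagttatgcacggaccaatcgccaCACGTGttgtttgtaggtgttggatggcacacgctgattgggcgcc
Eif4a1 (chr11:69672567-69672652, minus strand): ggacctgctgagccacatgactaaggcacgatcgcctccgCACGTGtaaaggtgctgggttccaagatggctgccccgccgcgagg
Eif4e (chr3:138527164-138527249, plus strand): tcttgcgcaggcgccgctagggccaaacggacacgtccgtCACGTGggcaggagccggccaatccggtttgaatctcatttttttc
Eef2 (chr10:81176548-81176630, plus strand): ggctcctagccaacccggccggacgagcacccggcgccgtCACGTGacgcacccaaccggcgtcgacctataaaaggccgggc
Gars (chr6:55037930-55038000, plus strand): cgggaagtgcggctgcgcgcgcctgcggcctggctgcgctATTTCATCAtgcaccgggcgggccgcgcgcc

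Promoters were found for 31 of the 46 genes. Searched on both strands, CACGTG was present in 12 of their 38 promoters (31.6%), against 7.15% of all 32851 promoters of the same length. The C/EBP-ATF core, searched as TGATGNAAN, was present in 5 of the 38 (13.2%) against 3.95%, and the GC box GGGCGG in 23 (60.5%) against 35.7%. These shares count promoters, and a gene can have several that overlap, as Eif5a with 6. By gene, CACGTG was present in 10 of the 31, the C/EBP-ATF core in 5 and the GC box in 21. No match of 1 motif overlapped a match of another in these promoters. The matches are a description of sequence and no binding was measured.

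Myc itself stood far apart between the genotypes. Its log2 level was 5.90, 5.92 and 6.20 in WT arrays 1 to 3 and 9.69, 8.37 and 8.61 in KO arrays 1 to 3. The KO arrays were all above the WT arrays, and KO array 1 was the highest. Myc rose by 2.88 log2 units (SE 0.32, limma adjusted p = 0.00289), or 7.39-fold. The exact permutation test gave p = 0.10, its minimum for 3 against 3 arrays. Myc was not called by an unequal-variance test (adjusted p = 0.342 over all genes), which called only 2 genes higher and 2 lower in all. Irf8 was not lower in the arrays labelled KO (log2 level 10.14 ± 0.15 in WT against 10.48 ± 0.32 in KO; SD, n = 3 each). The altered part of the gene is not stated, so all directions below are those of the labels.

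Beside that rise, none of the 40 translation genes passed the test. By limma at an adjusted p of 0.05, 0 were higher and 0 lower in KO, while 4.38% of all genes passed, 2.3% as higher and 2.08% as lower. The unequal-variance test called 0 of the 40 too, but it called only 2 higher and 2 lower among all 19937 genes. Its 0 therefore says nothing about these genes. At an unadjusted limma p of 0.05, 4 were higher and 1 lower, against 7.58% and 8.49% of all genes. The 4 were Tars, Eif1a, Eif4e and Eef1b2, and the 1 was Lars. Eif4e counts here by its brightest probe set, and its second differed in the opposite direction (-0.35). The differences ran from -0.60 for Lars to 0.60 for Eif4a2, with a median of 0.07 against -0.04 over all genes. Positive differences were found in 28 of the 40 (70%), against 41.8% of all genes. Among the 9978 genes whose mean level lay within the range of these 40, the share was 49.2%. In bulk samples a difference in RNA per cell and a difference in the mix of cells cannot be told apart. The arrays had also been brought to a common level before deposit, with medians between 5.53 and 5.56, so a rise of all transcripts together could not be seen.

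The intervals say how large a change these arrays could have missed. For 39 of the 40 genes the 95% interval of the difference, taken gene by gene, lay within 1 log2 unit on either side of 0, as it did for 88.8% of all genes. The exception was Eif4a2, whose interval reached 1.26. The interval lay within 0.5 units for 17 of the 40. A doubling was therefore outside the interval of nearly all these genes, and smaller changes were inside it for many.

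All 3 KO values were above or below all 3 WT values for 12 of the 40 genes (30.0%), against 20.4% of all genes. They were above for 10 genes (25%), against 8.71% of all genes, and below for 2 (5.0%), against 11.7%. Among the 9978 genes whose mean level lay between those of the dimmest and the brightest translation gene, the shares were 13.7% above and 12.8% below. The 10 were Hars, Qars, Tars, Eif1a, Eif3b, Eif3c, Eif4e, Eif4ebp2, Eif6 and Eef1b2, and the 2 were Lars and Eef1d. On the second probe set of Eif4e all KO arrays were instead below WT.

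**Figure D1:**
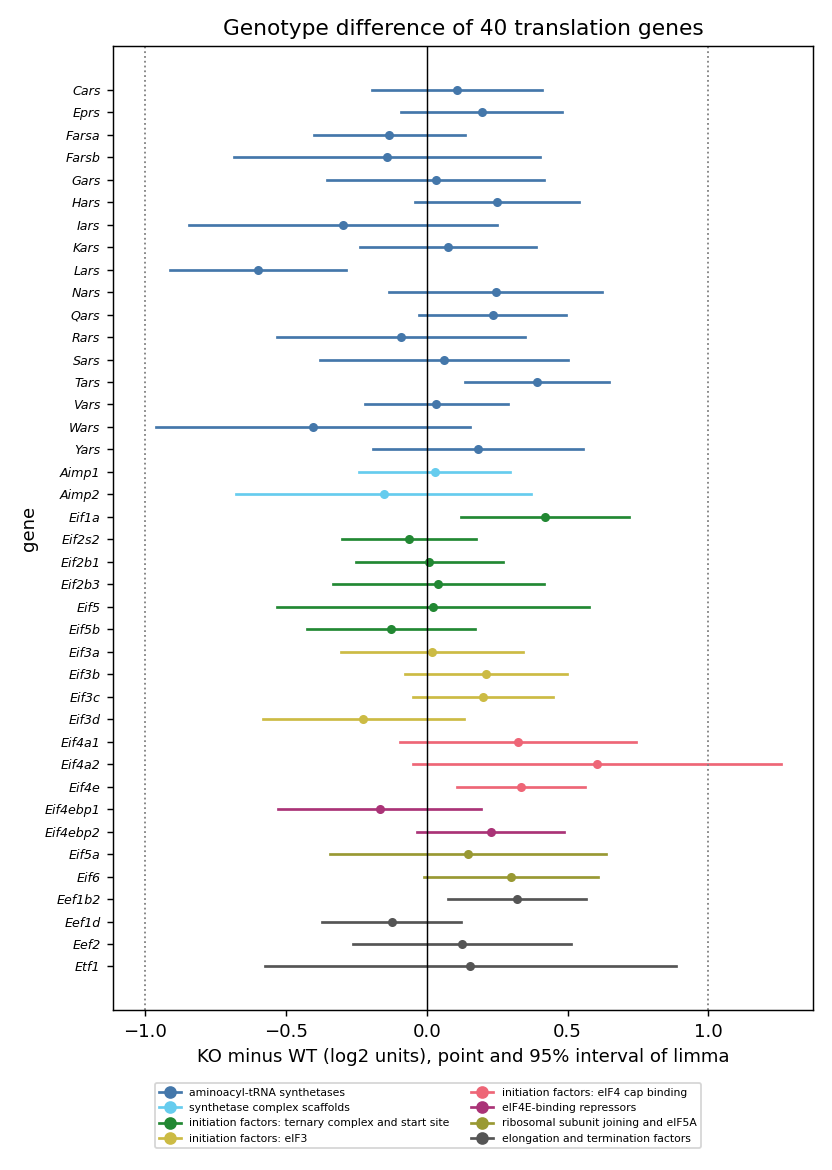
Difference between KO and WT in log2 units for the 40 measured translation genes, coloured by role; points are limma estimates, bars their 95% intervals (n = 3 arrays per genotype), and dotted lines mark 1 log2 unit on either side of 0. The estimates run from -0.60 (Lars) to 0.60 (Eif4a2), and the Eif4a2 bar is the one that crosses a dotted line.

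Cytosolic tRNA synthetases passed the test in neither direction. Of 20 listed, 17 were measured, and their differences had a median of 0.06, 11 of them positive (64.7%, against 41.8% of all genes). Lars, which encodes leucyl-tRNA synthetase, came nearest to the threshold. Its log2 level was 8.03, 8.13 and 7.86 in WT arrays 1 to 3 and 7.39, 7.24 and 7.59 in KO arrays 1 to 3. Every KO array was below every WT array. The difference was -0.60 (SE 0.13, limma adjusted p = 0.0529), and it passed with quantile normalization (adjusted p = 0.0472), among bright genes alone (0.0470) and with array weights (0.0397). The range of its adjusted p over all 17 alternatives was 0.0397 to 0.322.

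Tars, which encodes threonyl-tRNA synthetase, differed the other way. It measured 6.42, 6.48 and 6.41 in WT and 6.88, 6.68 and 6.91 in KO, on the log2 scale and in array order. The groups did not overlap, and the difference was 0.39 (SE 0.11, limma adjusted p = 0.113). Its promoter holds both motifs, CACGTG at 20 bases after the start and the C/EBP-ATF core at 16 bases before it. Hars and Qars, for histidine and glutamine, differed by 0.25 and 0.23, also with no overlap.

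Wars encodes tryptophanyl-tRNA synthetase, a gene known to be induced by interferon gamma. Its log2 level was 7.44, 6.72 and 7.39 in WT and 7.11, 6.44 and 6.79 in KO. The groups overlapped, and array 2 was the lowest in both. The difference was -0.40 (SE 0.24, limma adjusted p = 0.496). The interferon-stimulated genes of the fixed list had a median difference of 1.14, with 10 of 16 measured genes higher and 0 lower. Over all genes, 2.3% were higher and 2.08% lower. That list, with genes such as Ifit1, Oas2 and Rtp4, was not chosen to read interferon gamma. It therefore cannot say whether Wars followed that signal.

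The other synthetases with a single probe set differed by less than 0.25 in either direction. Eprs, Nars, Yars, Cars and Kars, for glutamate and proline, asparagine, tyrosine, cysteine and lysine, had differences of 0.20, 0.24, 0.18, 0.11 and 0.08. Sars, Vars and Gars, for serine, valine and glycine, had 0.06, 0.03 and 0.03. Rars, for arginine, had -0.09. Both subunits of phenylalanyl-tRNA synthetase had small negative values, -0.13 for Farsa and -0.14 for Farsb. The scaffold genes Aimp1 and Aimp2 differed by 0.03 and -0.15. In Farsb the KO arrays were spread more widely than the genotypes were apart: it measured 7.71, 7.42 and 7.44 in WT and 7.91, 7.25 and 6.98 in KO, with KO array 1 the highest of all 6.

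**Figure D2:**
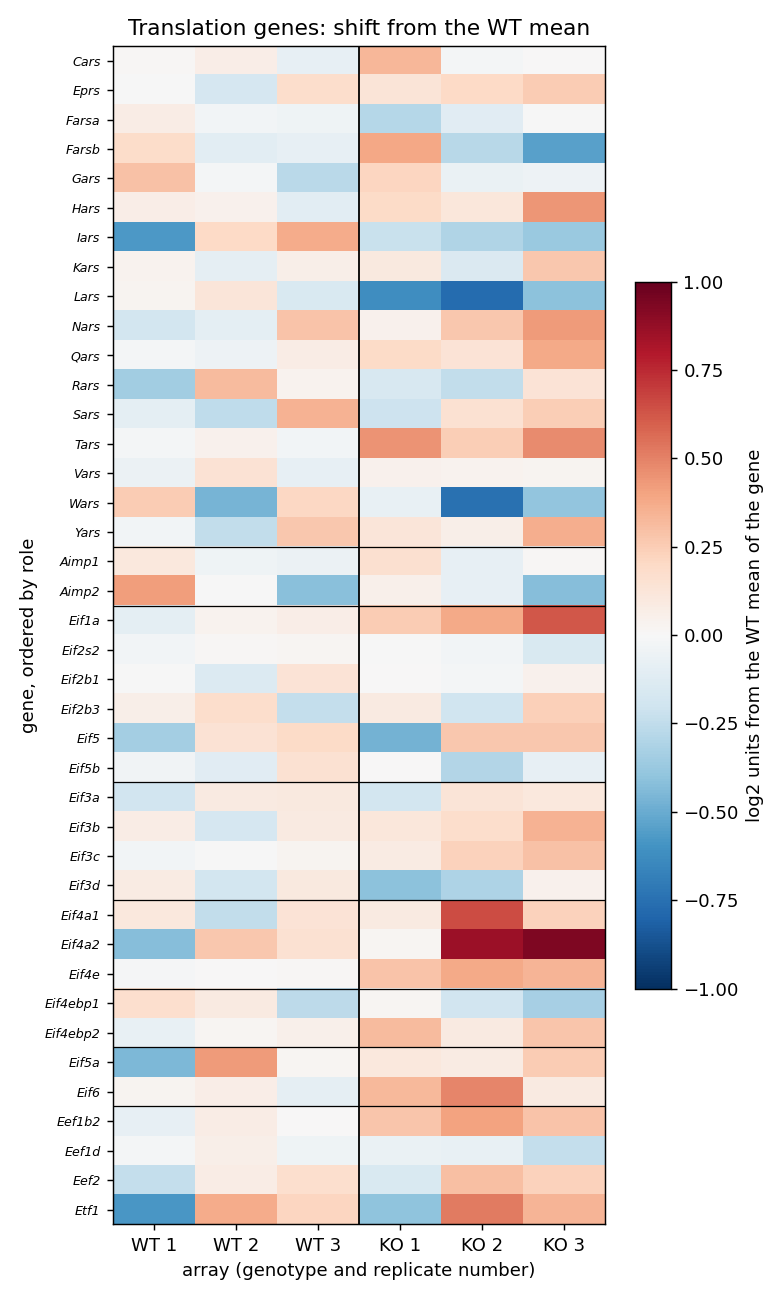
Log2 level of each translation gene in each array, relative to the gene's WT mean; rows are genes ordered by role, with lines between roles, and columns are arrays, with a line between WT and KO. Lars is low and Tars and Eif4e are high in all 3 KO arrays, while Eif4a2, Eif5 and Etf1 are low in WT array 1 and lower in KO array 1 than in the other KO arrays.

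Initiation factors and their regulators gave 0 calls in either direction among 17 measured genes of 19. Their median difference was 0.15, and 13 of the 17 (76.5%) were positive, against 41.8% of all genes. Eif4a2, an RNA helicase of the cap-binding complex, had the largest value. Its log2 level was 9.50, 10.19 and 10.08 in WT and 9.95, 10.78 and 10.86 in KO. Array 1 was the lowest of its genotype in both groups, and the groups overlapped through KO array 1. The difference was 0.60 (SE 0.28, limma adjusted p = 0.357). With the replicate number as a block it was 0.60 (adjusted p = 0.0345), without KO replicate 1 it was 0.89 (0.0463), and without both arrays numbered 1 it was 0.68 (0.0306). Its adjusted p ran from 0.0306 to 0.703 over the 17 alternatives.

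The low values in arrays numbered 1 were shared by other translation genes, a pattern chosen for description after the values were seen. In 10 of the 40 genes (25%) array 1 was the lowest in both genotypes, against 13.6% of all genes, and in 6 (15.0%) it was the highest in both, against 21.9%. Etf1, the release factor that ends translation, showed it most plainly. It measured 8.38, 9.34 and 9.18 in WT and 8.57, 9.49 and 9.31 in KO, so both arrays numbered 1 lay below the other 4. Eif5, which triggers GTP hydrolysis at the start codon, did the same with 10.39, 10.87 and 10.91 in WT and 10.25, 10.99 and 10.99 in KO. Genotype differences were 0.16 for Etf1 (SE 0.31) and 0.02 for Eif5 (SE 0.24), less than the spread within each genotype. A low array 1 was not particular to translation genes. It was the lowest in both genotypes for 6 of 8 plasma cell markers and 5 of 15 measured genes of the response to cell handling. For neutrophil granule markers it was the lowest in both for 0 of 14 and the highest in both for 11.

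Eif1a, which helps the ribosome scan for the start codon, measured 7.87, 8.01 and 8.04 in WT and 8.23, 8.35 and 8.59 in KO. The groups did not overlap, and the difference was 0.42 (SE 0.13, limma adjusted p = 0.143). Eif2s2, a subunit of the factor that carries the first tRNA, differed by -0.06, and Eif2b1 and Eif2b3, subunits of its exchange factor, by 0.01 and 0.04. Eif5b, which joins the ribosomal subunits, differed by -0.13. The 4 genes of eIF3, the large scaffold of initiation, lay at 0.02 for Eif3a, 0.21 for Eif3b, 0.20 for Eif3c and -0.22 for Eif3d. Eif6, which keeps the large subunit from joining too early, measured 6.42, 6.47 and 6.31 in WT and 6.72, 6.88 and 6.49 in KO, a difference of 0.30 with no overlap (SE 0.13, limma adjusted p = 0.328).

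Eif4e encodes the protein that binds the mRNA cap, and its value depended on the probe set. On the brightest probe set it measured 7.60, 7.62 and 7.62 in WT and 7.90, 7.99 and 7.95 in KO. The groups did not overlap, and the difference was 0.33 (SE 0.10, limma adjusted p = 0.124). On the second probe set the order was turned, with 7.04, 7.11 and 7.38 in WT and 6.94, 6.74 and 6.81 in KO, a difference of -0.35 (SE 0.13). The third, which shares no RefSeq transcript with Eif4e, gave 0.59 (SE 0.14). None of the 3 passed when all probe sets with 1 symbol were tested together, with limma adjusted p of 0.130, 0.241 and 0.0696. The repressors that bind eIF4E differed by -0.17 for Eif4ebp1 (SE 0.16, limma adjusted p = 0.698) and 0.23 for Eif4ebp2 (SE 0.11). Eif4ebp1 measured 6.77, 6.70 and 6.34 in WT and 6.62, 6.41 and 6.27 in KO, and the groups overlapped.

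Probe sets could be compared in 5 genes, Eif2s2, Eif4a1, Eif4e, Eif5a and Iars, and their estimates often differed in sign. Probe set numbers largely follow the genome. The most frequent chromosome among the numbered neighbours, 10 on each side, was compared with the gene's own. They matched for 97.2% of 21553 probe sets with 1 symbol and a known chromosome. For all 5 genes the brightest probe set was numbered among genes of another chromosome, and this held for 0 of the 35 genes with 1 probe set. Eif4e lies on chromosome 3, while its brightest probe set was numbered among genes of chromosome X. In 4 of the 5 genes, all but Eif4a1, the brightest probe set differed in sign from the brightest one numbered on the gene's own chromosome. Eif4e has another probe set numbered on chromosome 3, the one that shares no RefSeq transcript with it, and its sign was that of the brightest. Iars, isoleucyl-tRNA synthetase, measured 8.37, 9.15 and 9.32 in WT and 8.72, 8.65 and 8.58 in KO on the brightest probe set, a difference of -0.30 (SE 0.23). On its other probe set it measured 7.38, 7.23 and 7.68 in WT and 7.65, 7.55 and 7.70 in KO, a difference of 0.21 (SE 0.14). Eif5a, which helps the ribosome through difficult stretches, gave 0.15 (SE 0.21) and -0.07 (SE 0.10), and Eif2s2 gave -0.06 (SE 0.10) and 0.28 (SE 0.27). For Iars, Eif5a and Eif2s2 the 95% interval of every probe set held 0, so their change of sign lay within the error. For Eif4e the intervals of the brightest and the second probe set lay on opposite sides of 0. Eif4a1, the main cap helicase, gave 0.32, 0.56 and 0.23. Where the probes of these sets lie was not analysed here. With the probe sets of the own chromosome taken first, a choice made after the data were seen, 0 of the 40 genes were higher and 0 lower, and the median difference stayed at 0.07.

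**Figure D3:**
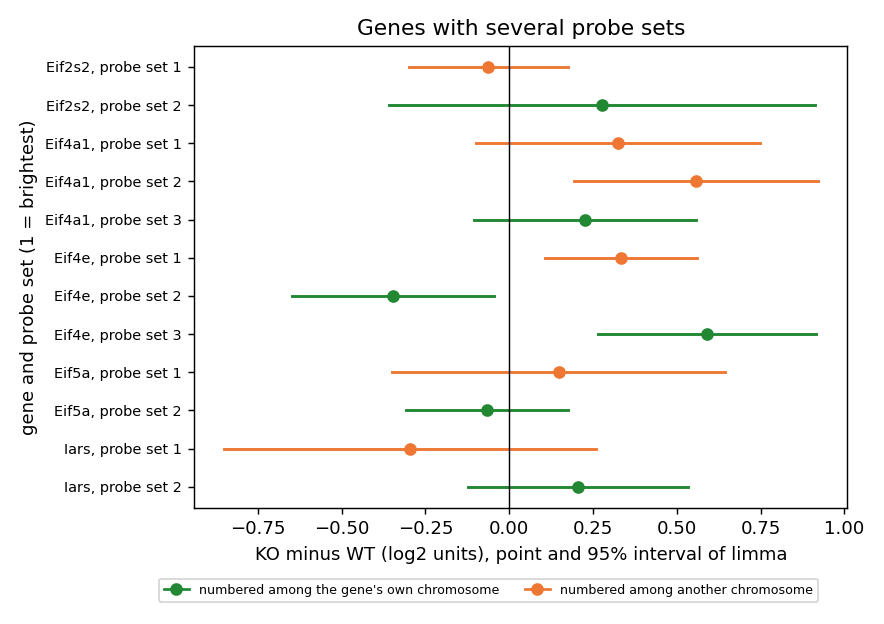
Difference between KO and WT in log2 units on each probe set of the 5 translation genes that have several; points are limma estimates over all probe sets with 1 symbol, and bars are 95% intervals (n = 3 arrays per genotype). Orange marks probe sets numbered among genes of another chromosome and green those of the gene's own; for Eif4e the first and second lie on opposite sides of 0, at 0.33 and -0.35.

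Elongation and termination factors gave 0 calls among 4 measured genes of 5. Eef1b2, part of the exchange factor that recharges the tRNA carrier eEF1A, measured 11.45, 11.60 and 11.54 in WT and 11.81, 11.93 and 11.81 in KO. The groups did not overlap, and the difference was 0.32 (SE 0.10, limma adjusted p = 0.168). Eef1d, another subunit of the same factor, lay just below WT in all KO arrays, with a difference of -0.12 (SE 0.11). Eef2, which moves the ribosome along the mRNA, measured 11.49, 11.80 and 11.89 in WT and 11.57, 12.03 and 11.96 in KO, a difference of 0.12 (SE 0.17).

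**Figure D4:**
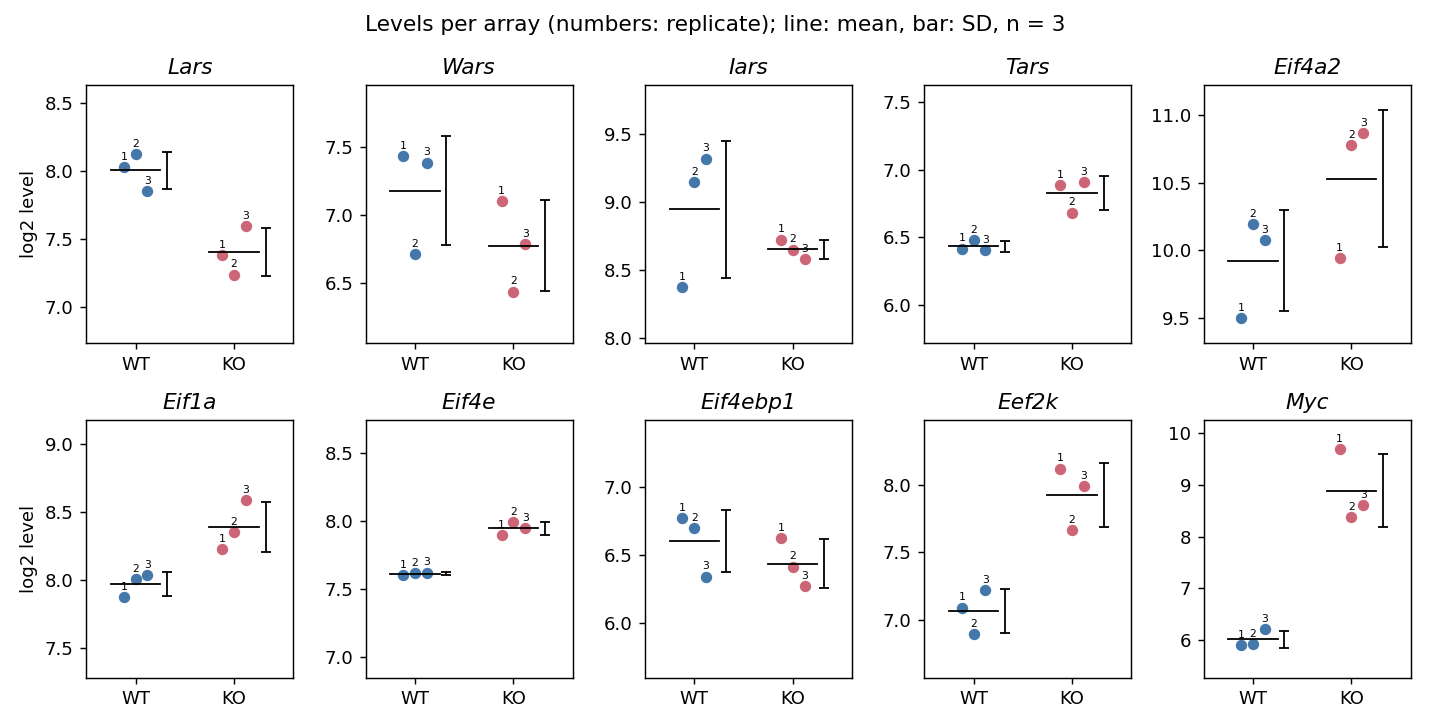
Log2 level in each array (numbers are replicate numbers) of 8 translation genes, of Eef2k, which encodes the kinase of eEF2, and of Myc; lines are means and bars SD (n = 3 per genotype). Each panel spans the same range except that of Myc, which is wider; Lars, Tars, Eif1a, Eif4e and Eef2k show no overlap, and Wars, Iars, Eif4a2 and Eif4ebp1 overlap.

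Most genes, of translation or not, did not share the order of Myc among the KO arrays. The median shift of the translation genes from the WT mean was 0.06, 0.07 and 0.23 in KO arrays 1 to 3, while Myc was highest in array 1. KO array 1 was the highest KO array for 13 of the 40 genes (32.5%), against 46.6% of all genes. The KO arrays stood in the same order as Myc for 6 of the 40 (15.0%), against 23.3% of all genes. An order of 3 arrays is easily shared or missed by chance, so these shares cannot decide whether the genes followed Myc. By role, synthetases shifted by 0.10, -0.02 and 0.13, initiation factors and regulators by 0.08, 0.13 and 0.24, and elongation and termination factors by -0.11, 0.35 and 0.26. WT arrays 1 to 3 had shifts of -0.02, 0.02 and 0.04 over the 40 genes. Since Myc splits the 6 arrays into separate groups of 3, a correlation with Myc cannot be told apart from the genotype difference and none is given.

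Among measured genes, 8 had CACGTG in a listed promoter: Farsb, Iars, Tars, Eif3a, Eif4a1, Eif4e, Eif5a and Eef2. Their differences ran from -0.30 to 0.39 with a median of 0.14, and 6 of the 8 were positive. The 19 measured genes with a promoter but no CACGTG had a median of 0.06, and 14 were positive. The split was wider for the GC box, with a median of 0.16 and 16 of 18 positive with it, and a median of -0.06 and 4 of 9 positive without it; neither split was tested. For Iars, Eif4e and Eif5a the sign turned with the probe set. The 4 measured genes with the C/EBP-ATF core, Gars, Iars, Tars and Yars, had differences of 0.03, -0.30, 0.39 and 0.18.

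**Figure D5:**
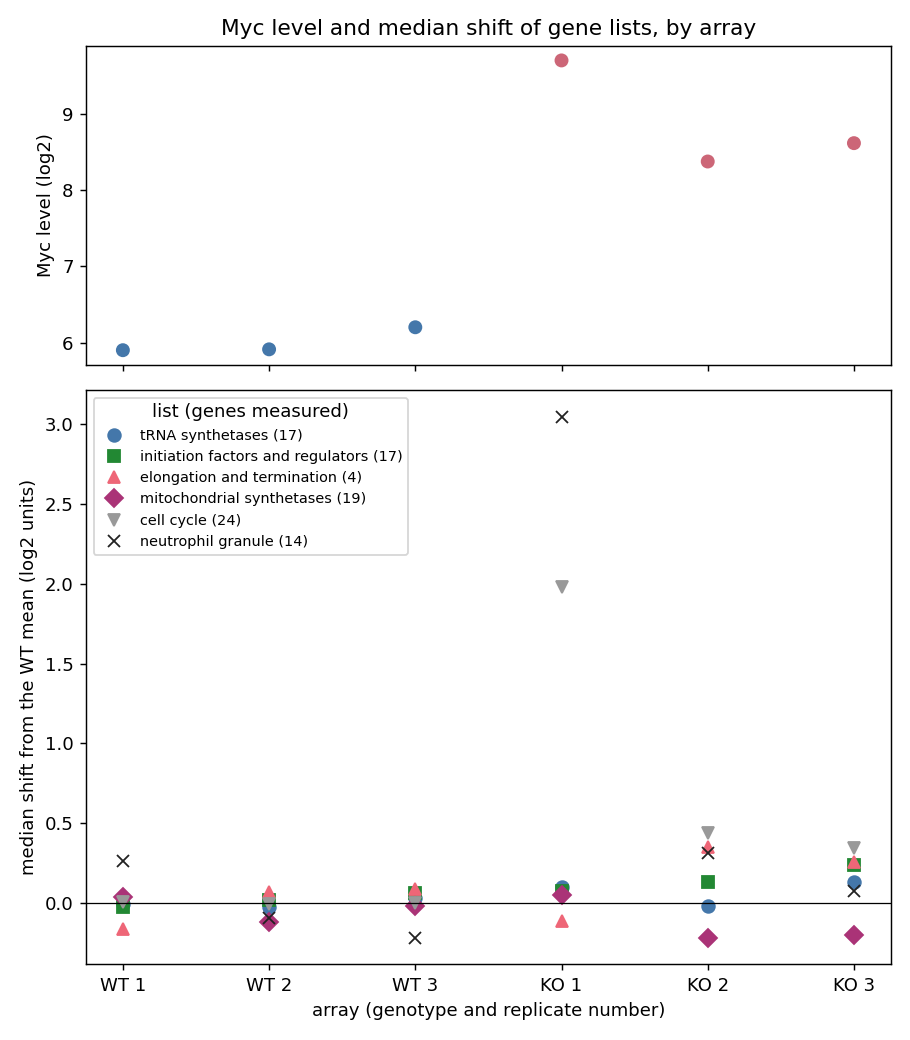
Upper panel, Myc log2 level in each array, WT in blue and KO in red. Lower panel, median shift of each gene list from the WT mean in the same arrays, in log2 units; the 4 translation lists plotted stay between -0.22 and 0.35, while cell cycle and neutrophil granule genes reach 1.98 and 3.05 in KO array 1.

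Lists for other cell types and states were read in the same arrays. Cell cycle genes shifted by 1.98, 0.44 and 0.34 in KO arrays 1 to 3, with 24 of 24 measured genes positive and 1 past the limma test, as higher. Neutrophil granule markers, 14 of 14 measured, shifted by 3.05, 0.31 and 0.07 with 0 past the test, and their mean log2 level ran from 4.56 to 5.59 in WT and from 5.17 to 8.37 in KO. Macrophage and monocyte markers, 11 of 12 measured, ran from 6.11 to 7.24 in WT and from 5.74 to 5.91 in KO, with 2 genes lower and 0 higher. The pDC markers, 11 of 14 measured, ran from 10.92 to 11.06 in WT and from 10.43 to 10.61 in KO. Of these, 3 were lower by limma, Ccr9, Tlr7 and Cd300c, against 2.08% of all genes, and 0 were higher. The median difference was -0.48, and 7 of the 11 had all KO arrays below WT, against 11.7% of all genes. The 2 positive pDC markers were Ly6d, at 0.42 with all KO arrays above WT, and Irf7, at 0.32 with overlap. B cell markers had 3 of 9 measured genes higher and 0 lower, and plasma cell markers 2 of 8 higher and 0 lower. Conventional dendritic cell markers had 3 of 12 higher and 4 lower. T cell markers had 1 of 7 higher and 1 lower, NK cell markers 0 of 9 higher and 1 lower, and erythroid markers 0 of 5 in either direction. Over all genes, 2.3% were higher and 2.08% lower. The part of these lists in the values of the translation genes was not tested. Without KO replicate 1, 1 translation gene was higher, Eif4a2, and 0 were lower.

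Of 112 other genes of translation and its control, 1 passed, while 4.38% of all genes did. At that share a short list can easily hold 0 calls. Eef2k, the kinase that inhibits eEF2 and so slows elongation, measured 7.09, 6.90 and 7.22 in WT and 8.12, 7.66 and 7.99 in KO. The groups did not overlap, and Eef2k rose by 0.85 (SE 0.15, limma adjusted p = 0.0224). Its second probe set differed by 0.26, and the call was lost with the mean of both (adjusted p = 0.138), without any of WT replicates 1 to 3 or KO replicate 3 (0.0526 to 0.0928), without both arrays numbered 1 (0.0531) and by the unequal-variance test (0.297). It was the 1 gene called among 17 further elongation, termination and recycling factors of 18. Of 30 further cytosolic initiation factors of 35, 0 passed, with a median of 0.12. Positive differences were found in 21 of the 30 (70%), against 41.8% of all genes. At an unadjusted limma p of 0.05, 8 were higher and 1 lower, against 7.58% and 8.49% of all genes. All KO arrays were above WT for 8 (26.7%) and below for 0, against 8.71% and 11.7% of all genes. The largest differences were 0.65 for Eif4e3, a cap-binding relative of Eif4e (limma adjusted p = 0.230), and 0.61 for Denr, a recycling and re-initiation factor (0.130).

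Mitochondrial synthetases and factors gave 0 calls in either direction, where 2.3% of all genes were higher and 2.08% lower. Few calls could be awaited in lists of this size. Of 19 measured mitochondrial synthetases of 20, 12 were negative, where 11595 of 19937 genes were negative in all, and the median was -0.08. Wars2, the mitochondrial tryptophanyl-tRNA synthetase, measured 6.53, 7.30 and 6.57 in WT and 6.25, 5.70 and 5.89 in KO, a difference of -0.85 (limma adjusted p = 0.108). Rars2, for arginine, differed by -0.58 (0.214). Of 10 mitochondrial translation factors, 8 were negative, and the largest values were -0.65 for the elongation factor Tufm (0.417) and -0.39 for the release factor Mtrf1 (0.356). In these lists KO array 1, with the highest Myc, was the highest KO array for 16 of 19 synthetases and 8 of 10 factors. This held for 46.6% of all genes, for 14 of 14 neutrophil granule markers and for 23 of 24 cell cycle genes. The mitochondrial synthetases shifted by 0.05, -0.22 and -0.20 in KO arrays 1 to 3. Without KO replicate 1, limma called 5 of the 112 lower, Tufm, Mtrf1, Mtif3, Wars2 and Eif2d, and 4 higher, Eef2k, Eif4g2, Phgdh and Rheb. The same fit called 719 of all 19937 genes lower and 780 higher, shares close to those of the 112. The cell cycle and neutrophil shifts given above were largest in the same array, and their part was not tested.

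Genes of the integrated stress response gave 0 calls among 23, against 4.38% of all genes, with a median of 0.09. Phgdh, the first enzyme of serine synthesis, measured 6.98, 6.84 and 6.60 in WT and 7.21, 7.50 and 7.52 in KO, a difference of 0.61 with no overlap (limma adjusted p = 0.0666). Ddit4, an inhibitor of mTOR signalling, differed by 0.57 (0.331). Of 13 measured genes of mTOR and MNK control of 14, 0 passed, against the same 4.38%, and the median was 0.10. Both lists are too short for 0 calls to tell them from other genes. Rheb, the GTPase that activates mTOR, measured 8.69, 8.90 and 8.49 in WT and 9.04, 9.62 and 9.69 in KO, a difference of 0.76 with no overlap (limma adjusted p = 0.0902). Rictor, a subunit of the second mTOR complex, differed by 0.48 (0.0928).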

How the data were processed

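The deposited table holds log2 expression levels of 34760 probe sets on 6 Affymetrix arrays, from RNA amplified with a NuGen PICO SL kit per the labels' protocols. Their range showed the log2 scale. How the authors corrected, summarised and normalized the arrays is not stated in the sources used here. The platform's annotation named the probe sets: 21640 had 1 symbol, 1321 several and 11799 none listed. The brightest probe set of each symbol gave 19937 genes. The number of arrays limits the precision.

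KO was compared with WT by limma 3.58.1 in R 4.3.3 (lmFit and eBayes, no covariate), two-sided, with Benjamini-Hochberg adjustment over all genes and a threshold of 0.05. The script was tested on simulated data. Dim probe sets were kept. Genes named were Myc, Irf8, members past the threshold (0) and the 3 largest differences in each direction. Wars, Eif4ebp1, Eif4e, members whose probe sets differed in sign, and the leading genes of each other list were also named. Etf1, Eif5, Farsb and others described beyond this were chosen after their values were seen. The members and lists were chosen with earlier results of these data known. Alternatives were normalization, probe set choice, brightness, variance model, array weights (statmod 1.5.0), the replicate block and arrays left out. Figures used matplotlib 3.10.9.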

Additional observations from a re-analysis of the deposited data

How the results depend on the processing

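The count of translation genes past the test stayed between 0 and 1 in each direction over 17 alternatives. It was 1 lower (Lars) with quantile normalization, bright genes alone and array weights, 1 higher (Eif4a2) with the replicate block, and 1 higher (Eif4a2) and 1 lower (Iars) without both arrays numbered 1; leaving out single arrays gave 0 to 1 higher and 0 lower. Their median difference lay between 0.03 and 0.14, less than 1 SD of the array medians from the value reported. Myc kept its direction throughout (2.43 to 3.15) and lost its call by the unequal-variance test (2.88, adjusted p = 0.342).

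Other translation genes numbered 4 higher and 1 lower with array weights, 4 and 2 without both arrays numbered 1, 0 higher with the mean of probe sets and with the unequal-variance test, and 1 lower with the replicate block; leaving out single arrays gave 0 to 4 higher and 0 to 5 lower. Over all genes, 716 were higher and 647 lower with array weights, 707 and 655 with the replicate block, 2 and 2 by the unequal-variance test, and 741 and 641 without both arrays numbered 1, while single arrays left out gave 249 to 780 and 202 to 719. With probe sets of the own chromosome first, chosen after the data were seen, Iars turned to 0.21 and Eif4e to -0.35. The cause of these changes was not tested.

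Arrays of the same number deviated together, with correlations across genes of 0.38, 0.10 and 0.25. Each WT array correlated best with the KO array of its number, while KO array 2 did so with WT array 3 (0.20). The labels name no pairs, so the main test took none, and a pairing by number remains possible. With the block, 707 genes were higher and 655 lower, against 459 and 415 in the main test. Among the translation genes the block changed the call of Eif4a2 and no other. Signal over background was not analysed here.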

Other observations

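Of 949 genes with several probe sets and a known chromosome, 194 (20.4%) had their brightest probe set numbered among genes of another chromosome. Eif2s3y, the copy of an eIF2 subunit gene on the Y chromosome, measured 2.31 to 2.62 in all 6 arrays, with a difference of -0.0072, and Xist, transcribed from the inactive X chromosome, measured 11.62 to 11.81.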
